A study of Mus musculus with 6 samples.

Results

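The protocadherin genes are described here, taken as every gene on the array whose symbol begins with Pcdh. Probe sets paired with exactly 1 symbol gave 35 such genes of 18193 genes in all. Of them, 23 belong to the clustered family, namely 22 Pcdhb genes and Pcdhgc4, and 12 are non-clustered. The alpha genes were not read singly, because no probe set carried 1 alpha symbol. Pcdhgc4 was the only gamma gene whose symbol a probe set carried, so the other gamma genes could not be described. A RefSeq gene table lists 70 Pcdh symbols, of which 14 are alpha, 22 beta, 22 gamma and 12 non-clustered. The members were chosen by name and not by any measured value, although earlier results of these data were known.

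The RNA came from mouse hippocampus and was hybridised to 6 Affymetrix expression arrays. HuD (gene symbol Elavl4) was expressed from a transgene and recovered with an antibody to its myc tag on protein-G beads, and the RNA held by those beads was measured on 3 arrays. RNA held by beads with non-immune IgG was measured on 2 arrays, and the total RNA that went into the pulldown on 1 array. The strain, the age, the promoter of the transgene, the number of animals and any pooling are not given in the sources used here, nor is it said whether arrays of a group came from separate animals. The p-values therefore rest on how far arrays of a group lie apart, and that spread may be only technical.

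Protocadherins are cell surface proteins of the cadherin superfamily that bind their own kind on neighbouring cells. The alpha and gamma genes of the clustered family each join a variable first exon to constant exons shared across their cluster, whereas each beta gene encodes its whole protein in a single exon. Neurons express differing sets of clustered protocadherins, which serve self-recognition of their branches, while the non-clustered delta protocadherins act in axon growth, synapse formation and circuit wiring. HuD is a neuronal RNA-binding protein of the ELAV family that binds U-rich and AU-rich stretches, mostly in the 3′ untranslated ends of mRNAs, and is known for stabilising its targets.

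Values are linear signals already scaled by the authors, and differences between groups are of log2(signal + 32), so a fold understates the change of a dim gene. Each gene was read by its brightest probe set, and genes were tested where their mean reached log2 6.55, a signal of about 61.9. Errors after ± are standard errors for log2 differences and SD for signals. A gene was called where its limma p-value, adjusted by Benjamini-Hochberg over 9097 tested genes, was under 0.05. Each signal is relative to the rest of its array. Fewer cells of a type and less RNA per cell cannot be told apart in these tissue samples. Arrays of the HuD group correlated at 0.965 to 0.984 across genes, and the IgG pair at 0.920. Log2 differences between HuD arrays had an SD of 0.314 to 0.457 and those between the IgG arrays one of 0.616, so the standard errors, which assume 1 spread for all groups, may be too small for the IgG side.

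Protocadherin mRNAs were higher on the HuD arrays than on the IgG arrays for 7 of the 20 members tested, and none was called lower. The 7 were Pcdh10, Pcdh11x, Pcdh18 and Pcdh19 among the non-clustered genes and Pcdhb12, Pcdhb17 and Pcdhb20 in the beta cluster. Of all tested genes, 21.5% were called higher and 34.0% lower. At an unadjusted p under 0.05, 8 members were higher and 0 lower, beside 5619 of 9097 tested genes, 3444 of them lower. The called differences ran from 0.83 for Pcdh18 to 2.03 for Pcdhb17 on the log2 scale.

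The median HuD minus IgG difference of the 20 members was 0.48, against -0.28 for all tested genes. The 11 tested clustered genes, all in the beta cluster, had a median of 0.42, with 3 called higher. Probe sets of several alpha genes, described below, are not in these counts. The 9 tested non-clustered genes had a median of 0.69, with 4 called higher. The difference between the classes was not tested. Positive differences were found for 17 of the 20, namely 9 of 11 clustered and 8 of 9 non-clustered genes, beside 3692 of all 9097 tested genes. The lowest HuD signal lay above the highest IgG signal for 10 members, beside 27.6% of all tested genes, and the highest HuD signal lay below the lowest IgG signal for 2, beside 43.1%.

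These positions depend on how the arrays are scaled. When each array was centred on its 75th percentile, the median of all tested genes moved from -0.28 to 0.03, and the share of called genes that were higher from 38.8% (1958 higher, 3093 lower) to 59.8% (2536 higher, 1702 lower). The distance of the member median from the median of all genes was 0.76 under the authors' scaling and 0.82 after quantile normalization. It was also 0.76 under that centring, which shifts all genes of an array equally and so cannot alter it. With no filter on dim genes it was 0.31, and without IgG array 1 it was 0.56. That distance was 0.71 for the clustered and 0.97 for the non-clustered genes under the authors' scaling. With the mean of a gene's probe sets in place of the brightest, it was 0.64 and 0.62, so the classes lay nearly level. That setting tested 19 members, 11 of them clustered, and these were not the same genes, as Pcdh18 was too dim for it. Averaging alters only genes with more than 1 probe set. All tested non-clustered genes but only a minority of the tested clustered genes have more than 1.

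**Figure D1:**
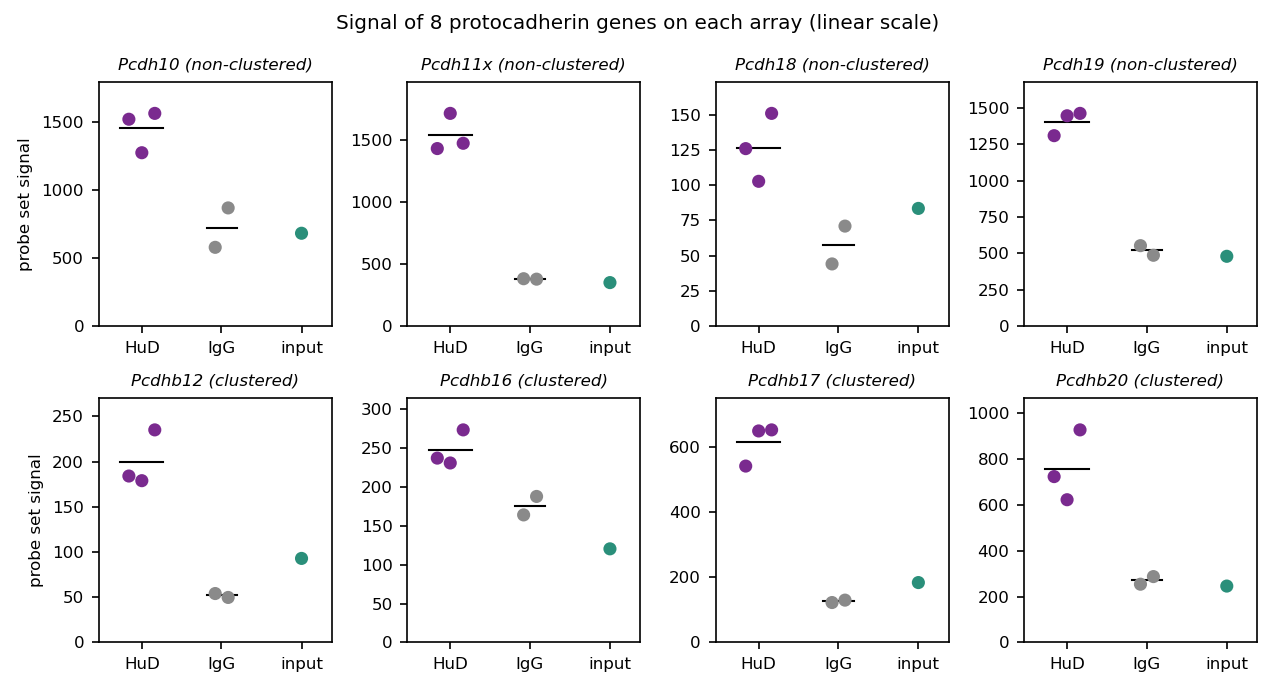
Signals of the 8 protocadherin genes called in at least 1 comparison, with 1 panel per gene. The vertical axis is the probe set signal on a linear scale from 0, each point is 1 array, and the 3 columns are HuD, IgG and input; for Pcdhb17 the HuD arrays lie between 540 and 651 and the IgG arrays at 122 and 130.

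Among the delta1 genes, 1 of 3 tested was called higher. Pcdh11x, an X-linked delta1 protocadherin of the brain, had signals of 1428, 1711 and 1470 on HuD arrays 1, 2 and 3, of 380 and 376 on IgG arrays 1 and 2, and of 349 on the input array. All HuD values stood far above the other 3, which lay close together. The mean was 1537 ± 153 (SD, n = 3) with HuD and 378 ± 2.56 (SD, n = 2) with IgG. The HuD minus IgG difference was 1.93 ± 0.25, or 3.81-fold, with an adjusted p of 0.000277. A separate probe set of the gene, 1438889_at, gave signals of 414, 398 and 299 with HuD, 142 and 150 with IgG, and 97.8 in the input. It was called higher too, at 1.16 ± 0.27 with an adjusted p of 0.00559 over the tested probe sets.

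Pcdh7, a delta1 protocadherin that binds the phosphatase inhibitor SET, had signals of 445, 284 and 322 with HuD, 194 and 225 with IgG, and 215 in the input. The groups did not overlap, but the difference of 0.64 ± 0.27 was not called (adjusted p = 0.0638). It was called after median centring, 75th percentile centring and quantile normalization, at 0.79, 0.96 and 0.81. Pcdh9, the third delta1 gene tested, gave a difference of 0.00 ± 0.29 with overlapping arrays (adjusted p = 0.994). Pcdh1, the fourth, was too dim to be tested, with signals between 1.89 and 24.5.

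All 5 delta2 genes were tested and 3 were called higher. Pcdh19, a delta2 protocadherin that partners N-cadherin and whose mutation in people causes an epilepsy, had signals of 1309, 1446 and 1463 with HuD, 552 and 486 with IgG, and 479 in the input. No HuD array came near the others. The means were 1406 ± 84.2 (SD, n = 3) and 519 ± 46.8 (SD, n = 2), and the difference was 1.38 ± 0.24, or 2.61-fold (adjusted p = 0.00117).

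Pcdh10, which acts in axon growth and in the removal of synapses, had signals of 1519, 1273 and 1562 with HuD, 578 and 867 with IgG, and 681 in the input. The HuD arrays were again the 3 highest. The means were 1452 ± 156 (SD, n = 3) and 723 ± 205 (SD, n = 2), and the difference was 1.00 ± 0.27, or 2.00-fold (adjusted p = 0.00906). When all probe sets of a gene were averaged, neither Pcdh19 (0.59, adjusted p = 0.0704) nor Pcdh10 (0.42, adjusted p = 0.0817) was called.

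Pcdh18, known to bind the reelin pathway adaptor Dab1, was dimmer, with signals of 126, 103 and 151 with HuD, 44.1 and 71.0 with IgG, and 83.5 in the input. The HuD values lay above the rest, and the input lay between the groups. The means were 127 ± 24.2 (SD, n = 3) and 57.5 ± 19.0 (SD, n = 2), and the difference was 0.83 ± 0.26, or 1.78-fold (adjusted p = 0.0187). The call was lost without HuD array 1 (0.83, adjusted p = 0.0627), HuD array 3 (0.72, 0.0675) or IgG array 1 (0.61, 0.1003), and with no filter on dim genes (adjusted p = 0.0601).

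The other two delta2 genes were not called. Pcdh8, an activity-induced protocadherin that drives N-cadherin from synapses, had signals of 3526, 2756 and 4163 with HuD, 1362 and 3292 with IgG, and 2350 in the input. Its IgG arrays stood far apart, and the second lay within the HuD range. The difference was 0.69 ± 0.34 (adjusted p = 0.108), and it was 1.31 and called without IgG array 2 but 0.06 without IgG array 1.

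Pcdh17, which acts at presynaptic sites, went the other way, with signals of 765, 484 and 688 with HuD, 848 and 952 with IgG, and 601 in the input. Its difference of -0.48 ± 0.27 was not called (adjusted p = 0.151), although no HuD array reached the IgG arrays. It was called lower with the mean of its probe sets, at -0.73 (adjusted p = 0.0254). The second probe set of the gene, 1436920_at, gave 412, 340 and 326 with HuD, 717 and 748 with IgG, and 610 in the input. That probe set was called lower, at -0.97 ± 0.26 with an adjusted p of 0.0116. It was not called without HuD array 3 or under 75th percentile centring, where it was -0.66.

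Of the 3 non-clustered genes placed in neither delta subclass, 1 was tested. Pcdh20 had a difference of 0.49 ± 0.29 with overlapping arrays (adjusted p = 0.167). Pcdh12, a protocadherin of blood vessel endothelium, had signals between 1.37 and 10.6, and Pcdh15, a component of the tip links of sensory hair cells, between 28.3 and 64.01.

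**Figure D2:**
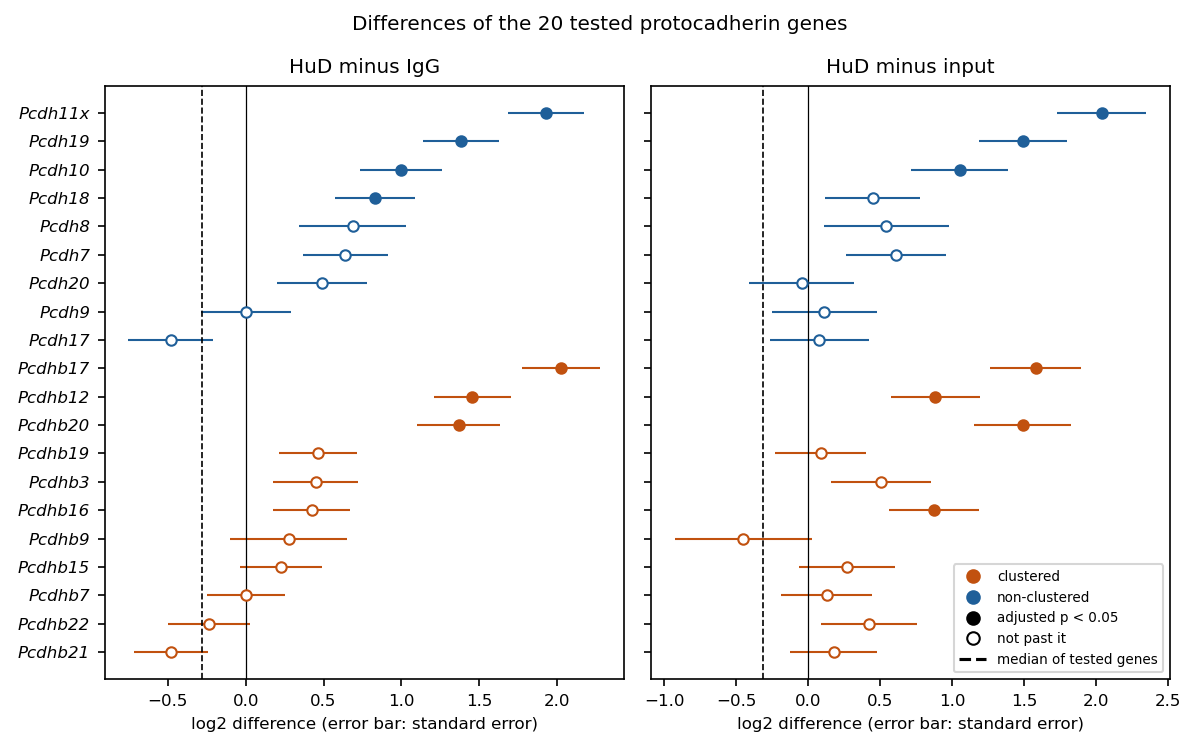
Differences of the 20 tested protocadherin genes in HuD minus IgG and in HuD minus input, with the log2 difference on the horizontal axis and a standard error bar for each gene. Colour marks the clustered and non-clustered genes, filled points are past the threshold, and the dashed line is the median of all tested genes, at -0.28 and -0.32; the highest point for HuD minus IgG is Pcdhb17 at 2.03.

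In the beta cluster, 11 of 22 genes were tested and 3 were called higher with HuD than with IgG. Pcdhb17 had signals of 540, 648 and 651 with HuD, 122 and 130 with IgG, and 183 in the input. The groups were widely separated and the input lay close to IgG. The means were 613 ± 63.1 (SD, n = 3) and 126 ± 5.20 (SD, n = 2), and the difference was 2.03 ± 0.25, or 4.07-fold (adjusted p = 0.000252).

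Pcdhb12 had signals of 184, 179 and 235 with HuD, 54.1 and 49.7 with IgG, and 92.9 in the input. The IgG arrays were the lowest and the HuD arrays the highest, with the input between them. The means were 199 ± 31.1 (SD, n = 3) and 51.9 ± 3.06 (SD, n = 2), and the difference was 1.46 ± 0.25, or 2.74-fold (adjusted p = 0.000971).

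For Pcdhb20 the signals were 722, 622 and 926 with HuD, 254 and 287 with IgG, and 245 in the input. The HuD arrays varied more among themselves than the IgG pair, yet none approached it. The means were 757 ± 155 (SD, n = 3) and 270 ± 23.5 (SD, n = 2), and the difference was 1.37 ± 0.27, or 2.58-fold (adjusted p = 0.00195).

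Pcdhb16 had signals of 237, 231 and 273 with HuD, 164 and 188 with IgG, and 120 in the input. The HuD arrays lay above IgG and the input below it. The difference from IgG, 0.42 ± 0.25, was not called (adjusted p = 0.162), but it was called under 75th percentile centring and quantile normalization. The same 2 settings called Pcdhb3 (0.45 ± 0.27, adjusted p = 0.180) and, with median centring as well, Pcdhb19 (0.46 ± 0.25, adjusted p = 0.136).

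The remaining 5 tested beta genes showed smaller or opposite differences. Pcdhb15 and Pcdhb7 gave 0.23 ± 0.26 and 0.00 ± 0.25, and Pcdhb22 gave -0.24 ± 0.26, all with overlapping arrays. Pcdhb21 had signals of 62.2, 62.3 and 83.4 with HuD, 106 and 111 with IgG, and 57.4 in the input. Its HuD values lay below IgG, and its difference of -0.48 ± 0.24 was not called (adjusted p = 0.105). Pcdhb9 had IgG signals of 172 and 466, which lay on either side of its HuD signals of 411, 252 and 424. Its difference was 0.27 ± 0.38 (adjusted p = 0.552), and it was 0.92 and called without IgG array 2 but -0.37 without IgG array 1.

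The genes called were not side by side in the cluster. In RefSeq order, Pcdhb12 stands between Pcdhb11 and Pcdhb13, neither of which was bright enough to test. Pcdhb17 follows Pcdhb16, which was not called, and precedes the untested Pcdhb18. Pcdhb20 stands between Pcdhb19 and Pcdhb21, both tested and not called. Beta genes resemble each other in sequence, and how far a probe set also bound RNA of its neighbours was not tested.

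Untested members numbered 15, of which 12 were clustered (Pcdhb1, Pcdhb2, Pcdhb4, Pcdhb5, Pcdhb6, Pcdhb8, Pcdhb10, Pcdhb11, Pcdhb13, Pcdhb14, Pcdhb18 and Pcdhgc4). The signals of these 15 genes ran from 0.537 to 64.01 over all arrays. Pcdhb15 and Pcdhb19 passed the brightness filter only with the HuD arrays counted, and neither was called.

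Against the input, 7 of 20 members were called higher with HuD and 0 lower, where 15.7% of all tested genes were called higher and 25.9% lower. At an unadjusted p under 0.05 the counts were also 7 and 0, beside 4704 of 9097 tested genes, 2950 of them lower. The 7 members were Pcdh10, Pcdh11x, Pcdh19, Pcdhb12, Pcdhb16, Pcdhb17 and Pcdhb20, thus 4 clustered and 3 non-clustered genes. This comparison uses the same HuD arrays as the one against IgG, so they are not independent of each other. It also has a single input array, whose spread was taken from the other groups.

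Pcdh11x was 2.04 ± 0.31 above the input, or 4.11-fold (adjusted p = 0.00208). Pcdhb17 was 1.58 ± 0.32 above it, or 2.99-fold (adjusted p = 0.00458). Pcdh19 and Pcdhb20 were both 2.81-fold higher, at 1.49 ± 0.31 (adjusted p = 0.00498) and 1.49 ± 0.34 (adjusted p = 0.00712). These 4 estimates were the largest of the 7. As the mean of its probe sets, however, Pcdh19 was at 0.77 and not called (adjusted p = 0.0807).

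Pcdh10 differed by 1.05 ± 0.34 (adjusted p = 0.0285), Pcdhb12 by 0.88 ± 0.31 (adjusted p = 0.0408) and Pcdhb16 by 0.87 ± 0.31 (adjusted p = 0.0438). Each of these calls was lost without HuD array 1 (adjusted p = 0.0908, 0.0905 and 0.106) and without HuD array 3 (0.0833, 0.123 and 0.135). Those of Pcdhb12 and Pcdhb16 were also lost without HuD array 2 (0.0521 and 0.0577). Each call was lost as well with no filter on dim genes and with the suffix of the array titles as a block. A milder filter, at the 25th percentile, lost those of Pcdhb12 and Pcdhb16 (adjusted p = 0.0561 and 0.0594). Median centring lost those of Pcdh10 and Pcdhb16. As means of their probe sets, Pcdh10 (0.35) and Pcdhb16 (0.42) were not called. Without HuD array 1 or HuD array 3, 4 members were called. Pcdh18, called against IgG, was 0.45 ± 0.33 above the input (adjusted p = 0.284).

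The median HuD minus input difference was 0.47 for the members, 0.42 for the clustered genes and 0.54 for the non-clustered genes, against -0.32 for all tested genes. Negative values were found for Pcdhb9, at -0.45, and Pcdh20, at -0.05, and neither was called.

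Between IgG and the input, limma called none of the 20 members, and 0 members had an unadjusted p under 0.05. Over all tested genes, 0.0220% were called higher with IgG (2 genes) and 0% lower, with 641 genes at an unadjusted p under 0.05. The member differences ran from -0.73 for Pcdhb9 to 0.66 for Pcdhb22, with a median of 0.05 in both classes. For the genes called against IgG, the IgG minus input difference was between -0.57 (Pcdhb12) and 0.12 (Pcdhb20).

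**Figure D3:**
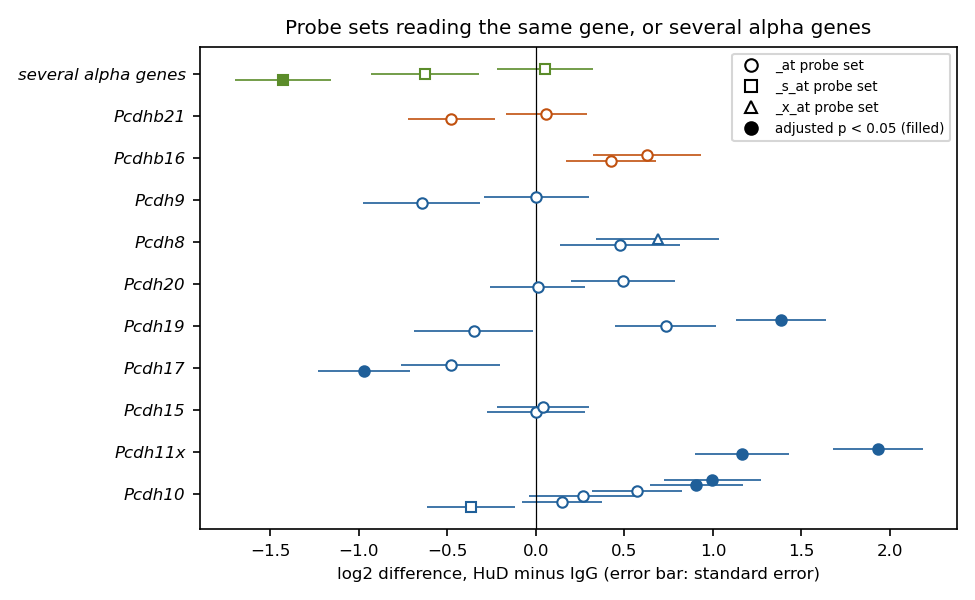
HuD minus IgG differences of the tested probe sets, for genes read by more than 1 of them and for the probe sets assigned to several alpha genes. The horizontal axis is the log2 difference with its standard error, the marker shape is the probe set type, and filled markers are past the threshold; the probe sets of Pcdh10 run from -0.37 to 1.00.

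Probe sets were then fitted one by one, because a gene can be read at several places and the suffix of a probe set tells how specific its design is. By the maker's naming, _at is specific to a transcript, _a_at reads several transcripts of a gene, _s_at matches several transcripts that can come from different genes, and _x_at holds probes that may cross-hybridise. Protocadherin genes had 62 probe sets with 1 symbol, of which 57 were _at, 2 _s_at, 2 _x_at and 1 _a_at. Of these, 37 were among the 22519 probe sets tested, with 9 called higher and 1 lower. Of all tested probe sets, 14.7% were called higher and 26.0% lower.

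The 9 higher probe sets belong to the 7 genes above, and all were of the _at type. The gene calls were made on _at probe sets. Over the array, 16% of tested _at probe sets were called higher and 21.9% lower, 13.4% and 32.7% of _s_at, and 9.43% and 43.9% of _x_at. The member probe sets of type _s_at and _x_at were 2 and 1 among those tested, and none was called. Pcdh8 and Pcdhb15 were read at gene level by an _x_at and an _s_at probe set. For Pcdh8, the _at probe set 1417051_at gave 0.48 (adjusted p = 0.278), with 1.02 and a call without IgG array 2 but -0.07 without IgG array 1.

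Pcdh10 had 6 tested probe sets that did not move together. Besides the one used for the gene, 1421311_at was called higher at 0.91 ± 0.26 (adjusted p = 0.0173), with signals of 139, 147 and 182 with HuD, 54.3 and 83.6 with IgG, and 40.5 in the input. At the probe set level both calls were lost when HuD array 1, HuD array 3 or IgG array 1 was left out. The other 4 gave 0.57, 0.27, 0.15 and -0.37, the last from 1425563_s_at, and were not called. Pcdh19 had 2 further probe sets at 0.73 (1437360_at, adjusted p = 0.0580) and -0.35 (1444422_at, adjusted p = 0.420). The first was called without IgG array 1, at 1.07, with the title suffix as a block, at 0.80, and under median and 75th percentile centring, at 0.88 and 1.05. The second was -0.96 and called without IgG array 2 but 0.25 without IgG array 1. Which parts of the transcripts these probe sets read was not analysed here.

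A second probe set of Pcdh9, 1442659_at, gave -0.65 (adjusted p = 0.136) and had 1 IgG array at 1963 and the other at 849. It was -1.24 and called without IgG array 2 but -0.06 without IgG array 1. Those of Pcdh20, Pcdhb16 and Pcdhb21 gave 0.01, 0.63 and 0.06 and were not called. Probe sets 1421503_at and 1444317_at of Pcdh15 passed the lower brightness limit of this fit, with differences of 0.04 and -0.00. Another probe set of that gene, 1442326_at, did not pass it.

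Alpha cluster transcripts were read by 6 probe sets that each carried several alpha symbols, and they can be described only for the cluster. The 3 that were tested were all _s_at with 14 symbols each, so they did not separate the alpha genes. Probe set 1451769_s_at had signals of 72.5, 56.6 and 40.7 with HuD, 175 and 237 with IgG, and 159 in the input. All HuD arrays were far below the other 3. It was called lower, at -1.43 ± 0.27 against IgG (adjusted p = 0.00230) and -1.12 ± 0.34 against the input (adjusted p = 0.0334). The call against IgG held in each of 16 settings, between -1.62 and -1.11. The call against the input was lost when any 1 HuD array was left out, at -1.25 to -0.99, and under 75th percentile centring, quantile normalization, no filter and the suffix block.

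The other two alpha probe sets differed from it. The brightest, 1420798_s_at, gave 1167, 752 and 1081 with HuD, 1185 and 1989 with IgG, and 1280 in the input. The HuD arrays lay below both IgG arrays, HuD array 2 farthest, and the difference of -0.63 ± 0.31 was not called (adjusted p = 0.118). It was called without IgG array 1 and after quantile normalization. Probe set 1424341_s_at gave 131, 94.0 and 111 with HuD, 130 and 85.4 with IgG, and 328 in the input. It was not called between HuD and IgG (0.05 ± 0.27, adjusted p = 0.895), but was called lower with HuD than in the input, at -1.33 ± 0.34 (adjusted p = 0.0165), a call lost under 75th percentile centring, no filter and the suffix block. Its IgG arrays lay as low, with an IgG minus input difference of -1.38 that was not called (adjusted p = 0.172, unadjusted p = 0.00246).

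Against the input, 7 of the 37 tested single-gene probe sets were called higher and 0 lower, and 2 of the 3 alpha probe sets were called lower. The 7 read Pcdh10, Pcdh11x, Pcdh19, Pcdhb17 and Pcdhb20. The probe sets behind the gene calls of Pcdhb12 and Pcdhb16 were not called when adjusted over all tested probe sets. Their adjusted p was 0.0634 (1422877_at) and 0.0661 (1441994_at). Of all tested probe sets, 9.75% were higher and 15.6% lower in that comparison. The alpha counts rest on 3 probe sets of the _s_at type, a type called lower against IgG in 32.7% of those tested and against the input in 19.7%.

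The arrays carry 2 suffixes in their titles, le1 (HuD array 1, IgG array 1, input) and e1_le1 (HuD arrays 2 and 3, IgG array 2), whose meaning is not given. Within le1 and within e1_le1 the HuD minus IgG difference was 1.82 and 1.99 for Pcdh11x, 1.20 and 1.52 for Pcdh19, 1.35 and 0.68 for Pcdh10, and 1.05 and 0.61 for Pcdh18. It was 1.89 and 2.08 for Pcdhb17, 1.33 and 1.54 for Pcdhb12, and 1.40 and 1.31 for Pcdhb20. All 7 genes called were positive in both. This could not have been otherwise, because every HuD array lay above every IgG array for each of them. Among members not called, Pcdh9 (0.49 and -0.40) and Pcdhb9 (1.12 and -0.47) turned their sign. Pcdh8 (1.35 and 0.04), Pcdh20 (1.09 and 0.07), Pcdh7 (1.07 and 0.38) and Pcdhb3 (0.68 and 0.27) were higher within le1. Pcdhb19 (0.15 and 0.74) was higher within e1_le1, and Pcdh17 (-0.14 and -0.69) lay farther below 0 there.

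**Figure D4:**
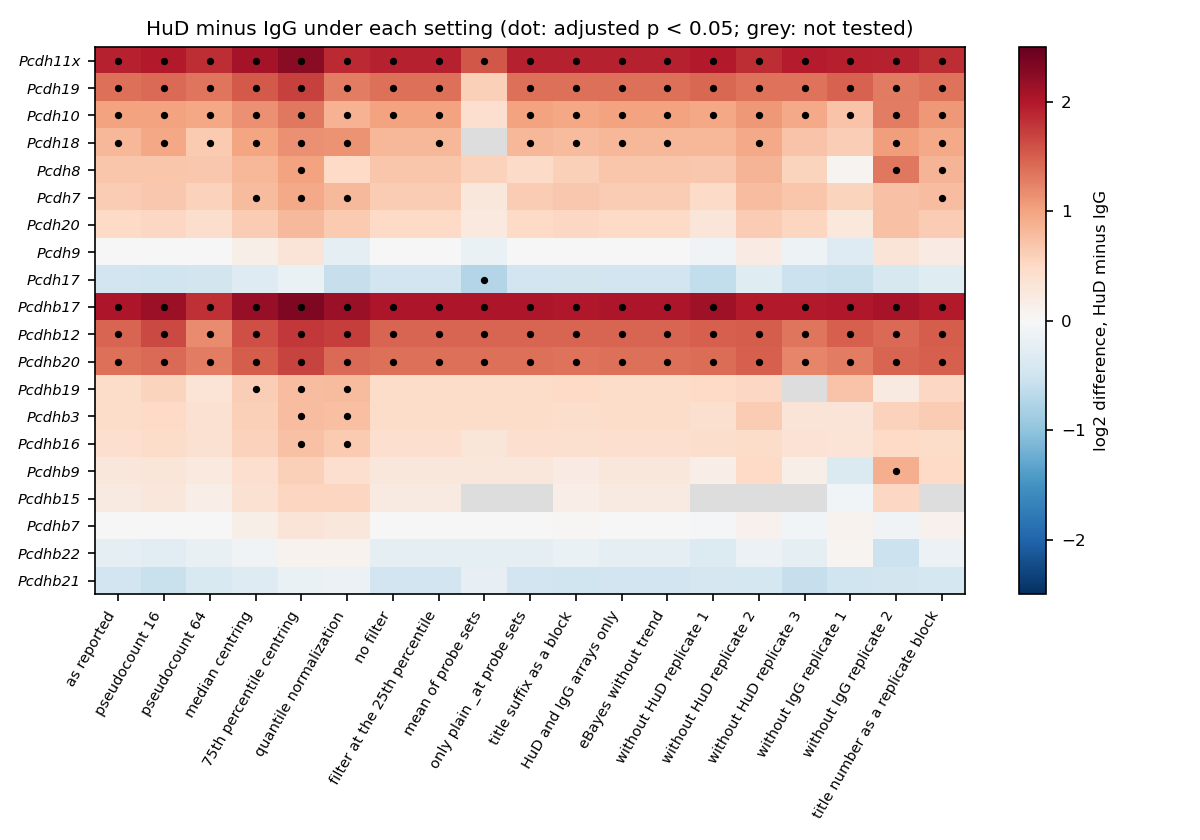
HuD minus IgG difference of each tested protocadherin gene (rows) under the reported and each alternative setting (columns), coloured by log2 difference. A dot marks an adjusted p under 0.05 and grey a gene not tested; Pcdh11x, Pcdhb12, Pcdhb17 and Pcdhb20 carry a dot in all columns.

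Related genes were taken from lists of the cadherin superfamily, of catenins, of regulators of protocadherin promoters and of protocadherin effectors. Against IgG, 21.5% of all tested genes were called higher with HuD and 34.0% lower, with a median of -0.28. Among other cadherin superfamily genes, 19 of 37 on the array were tested, with 4 called higher and 6 lower with HuD than with IgG and a median of -0.08. Cdh7, a classical type II cadherin, had signals of 642, 672 and 705 with HuD, 86.8 and 109 with IgG, and 125 in the input, a difference of 2.44 ± 0.25 (adjusted p = 0.000143). Fat1, a giant atypical cadherin, was higher at 1.48 ± 0.28 (adjusted p = 0.00173).

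Cdh10, another type II cadherin, was higher at 1.38 ± 0.32 (adjusted p = 0.00440), with 0.91 without IgG array 1 and 0.20, not called, as the mean of its probe sets. Cdh22 was lower at -1.43 ± 0.34 (adjusted p = 0.00473). Its value was -0.83 without IgG array 1, and it remained called.

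Catenins link classical cadherins, but not most protocadherins, to actin. Of 7 tested, 3 were called higher and 1 lower, with a median of 0.53. Ctnnd2, the neuronal delta-catenin, was higher at 1.20 ± 0.23 (adjusted p = 0.00194), and Ctnnd1, p120-catenin, at 1.10 ± 0.25 (adjusted p = 0.00416). Ctnnb1, beta-catenin, was higher at 0.77 ± 0.21 (adjusted p = 0.00957), a call lost without HuD array 3 (0.74, adjusted p = 0.0555) and with the mean of its probe sets (0.42). Ctnna1, alpha-catenin, was lower at -1.20 ± 0.24 (adjusted p = 0.00236) and was read by an _x_at probe set.

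Of 17 tested regulators of clustered protocadherin promoter choice, 3 were called higher and 4 lower, with a median of -0.26. That median lay close to the -0.28 of all tested genes. Ctcf, whose protein loops distant enhancers to protocadherin promoters, was higher at 1.24 ± 0.26 (adjusted p = 0.00251), but at 0.47 and not called as the mean of its probe sets. The cohesin loader gene Nipbl was lower at -1.48 ± 0.31 (adjusted p = 0.00290), and at -0.97 without IgG array 1. Trim28, a corepressor, was lower at -1.53 ± 0.25 (adjusted p = 0.000883). Ehmt2, a histone methyltransferase, was lower at -1.56 ± 0.40 (adjusted p = 0.00691), and the call was lost without IgG array 1 (-0.82, adjusted p = 0.0525).

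Of 22 tested genes for protocadherin effectors and processing, 6 were called higher and 4 lower, with a median of 0.23. Wasf1, the WAVE complex actin regulator that Pcdh10 reaches through its partner Nckap1, was higher at 1.74 ± 0.24 (adjusted p = 0.000387). Its signals were 7047, 10816 and 8264 with HuD, 2468 and 2624 with IgG, and 1866 in the input. Abi2, of the same complex, was higher at 1.48 ± 0.22 (adjusted p = 0.000538), and Set, which encodes the Pcdh7 partner, at 1.42 ± 0.23 (adjusted p = 0.000830). Rac1, the small GTPase that activates the complex, was higher at 1.59 ± 0.26 (adjusted p = 0.000879), read by an _s_at probe set. With _at probe sets only, Rac1 was at 0.26 and not called.

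**Figure D5:**
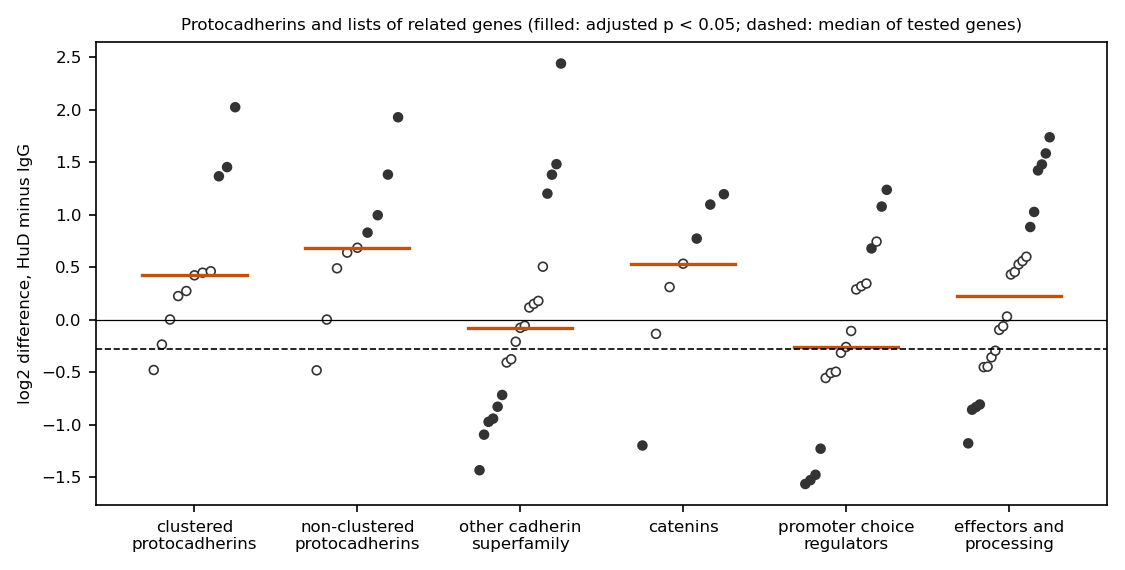
HuD minus IgG differences of the tested clustered and non-clustered protocadherins and of the 4 lists of related genes, 1 point per gene on a log2 axis. Filled points are past the threshold and the dashed line is the median of all tested genes, -0.28; the median was 0.42 for the clustered and 0.69 for the non-clustered protocadherins.

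Markers of the hippocampal cell types were measured on the same arrays. Of the neuronal markers, Neurod2, an excitatory neuron transcription factor, was called higher at 0.83, a call lost when any 1 HuD array or IgG array 2 was left out, Zbtb20 was lower at -1.59, and 3 of 5 tested were not called. Among 5 interneuron markers 3 were lower and Pvalb was higher, at 1.44. For glia, 3 of 4 oligodendrocyte, 2 of 4 astrocyte and 3 of 4 microglial markers were called lower with HuD than with IgG, and none was called higher. Of all tested genes, 34.0% were called lower. The summed signal was 3598 to 3885 with HuD and 7398 to 8887 with IgG for the astrocyte list, 1116 to 1587 and 2366 to 3621 for the microglial list, and 8732 to 12703 and 12787 to 19270 for the oligodendrocyte list. Summed signals were also lower without overlap for the excitatory neuron list, at 1890 to 3181 with HuD and 3554 to 4622 with IgG. So were those of the choroid plexus (11944 to 15113 and 16098 to 18503) and endothelial (89.9 to 116 and 188 to 225) lists. Those of the interneuron list overlapped, at 4848 to 7256 and 7227 to 8034. The only endothelial marker tested was lower, and 0 of 2 tested choroid plexus markers were called. No marker was listed at 0. Their part in the protocadherin differences was not tested.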

How the data were processed

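The authors deposited 1 linear intensity for each probe set on each array, and had scaled these: without the lowest and highest 2%, the mean was 150.0 on each array. The software and the genome build of the array are not given in the sources used here, and no detection calls were used. Of 45101 probe sets, 64 controls were left out. A platform annotation gave 34945 of the rest 1 symbol, 932 several and 9160 none. Entrez identifiers of 34741 matched a RefSeq table (GRCm38.p6, names and neighbour order only) and 0 symbols changed. A gene was represented by its probe set of highest mean across the 6 arrays, which favours probe sets bright in any group. Genes at or above the median mean log2 value were tested on log2(signal + 32) with limma 3.58.1 in R 4.3.3 (lmFit, 1 mean per group, eBayes with trend, 3 residual and 8.40 prior degrees of freedom), and separately all non-control probe sets. The script was tested on simulated data. The number of arrays limits the precision.

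Members called in any of 3 comparisons are given in full, other tested members with their HuD minus IgG difference, untested members by signal range, and up to 4 genes per list by the size of that difference. Other sentences on probe sets follow these genes. The members and lists were chosen with earlier results of these data known. Alternatives changed the pseudocount (16, 64), scaling, brightness filter, probe set rule, block, arrays fitted and eBayes trend, or left out 1 array. No sequences were used.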

Additional observations from a re-analysis of the deposited data

How the results depend on the processing

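Pcdh11x, Pcdhb12, Pcdhb17 and Pcdhb20 were called higher with HuD than with IgG under all 18 alternatives, with ranges of 1.55 to 2.25, 1.18 to 1.77, 1.83 to 2.34 and 1.22 to 1.68. Pcdhb12, Pcdhb17 and Pcdhb20 each have 1 probe set, of the _at type. Averaging probe sets or keeping only _at probe sets therefore could not alter their differences, unlike those of Pcdh10 and Pcdh19 under averaging. Of the called differences recomputed (members and member probe sets against IgG and the input, named list genes and the 3 neuronal markers against IgG), none turned its sign. With 75th percentile centring, 6 clustered genes (3 as reported), 16 protocadherin probe sets (9) and 11 effector genes (6) were called higher, while 1 probe set (2), 3 other cadherins (6), 1 effector (4) and 1702 of all genes (3093) were lower. Quantile normalization gave 6 clustered genes higher and 2 effectors lower. Averaging probe sets, which left Pcdh18 too dim to be tested, called 1 non-clustered gene higher (4) and 1 lower (0). With averaging, 0 promoter regulators were higher (3) and 2 effectors lower. Averaging called 4 members higher against the input (7), as did no filter and the suffix block. With no filter 2 effectors were lower. With _at probe sets only, 1 catenin was higher (3). Leaving out 1 array gave 4 to 7 members higher against the input, 1 to 4 probe sets, 2 to 5 effectors and 2044 to 2872 of all genes lower against IgG; without HuD replicate 3 the probe set count was 1, without IgG replicate 2 it was 4, without HuD replicate 1 all genes lower were 2044, and without HuD replicate 1 or 2 the effectors were 2. The causes were not tested. Titles share numbers for 2 pairs of HuD and IgG arrays (HuD array 1 with IgG array 1, HuD array 3 with IgG array 2), whose deviations correlated at 0.26 across genes. The first pair has the suffix le1 and the second e1_le1, so number and suffix cannot be told apart in these pairs. The title of HuD array 2 also has the number 1, and nothing states what the numbers mark. A replicate block over these 4 arrays, chosen after seeing the data and with few degrees of freedom, called 3 clustered and 6 non-clustered genes higher, 0 members lower, and 2139 of all genes higher and 3259 lower; it added Pcdh7 and Pcdh8 to the genes called. Dim members lie near the added 32, which limits their differences.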
